A study of Arvicanthis niloticus with 59 samples.

Results

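Chemokine ligands and chemokine receptors were followed across the organs of Arvicanthis niloticus, the Nile grass rat, which is active by day. They were taken by symbol alone, as every row of the expression table named as a member of the Ccl, Cxcl, Cx3cl, Xcl, Ccr, Cxcr, Cx3cr or Xcr series. This gave 51 members of 18970 genes, 34 ligands and 17 receptors. Symbols are in mouse form, since the rows carry mouse gene identifiers, and 29 of the 51 symbols were found in the RefSeq gene table of this species.

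Chemokines are small secreted proteins that guide migrating cells, and their receptors are G protein-coupled receptors on the surface of those cells. A few ligands are made steadily and place lymphocytes within lymphoid organs, gut and bone marrow, whereas others are induced in inflammation and draw in neutrophils, monocytes and T cells. Fractalkine, the product of Cx3cl1, and the product of Cxcl16 are unusual in being tethered to the cell surface, and in brain fractalkine is made by neurons and its receptor by microglia. Roles given below are those known from mouse or human.

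RNA was measured in 59 libraries from 48 sites in 22 organs of 4 animals, named T3F (38 libraries), T173F (12), T426 (8) and T424 (1, testis). All tissue was labelled healthy and untreated, and no genotype, strain or age is stated for any group. The group of blood-forming and lymphoid organs held 5 libraries: bone marrow T3F, femur T3F, femur T426, spleen T3F and thymus T173F. The brain and spinal cord group held 10 libraries, 9 of T3F and a hippocampus of T426. Retina and optic nerve (4 libraries) were kept apart, and the remaining 40 libraries formed the group of other organs. Small intestine had 4 libraries (duodenum T3F, duodenum T426, jejunum T3F, ileum T3F) and large intestine 3 (cecum T173F, colon T3F, rectum T173F). A total of 10 sites had libraries of 2 animals. No lymph node library was among the organs. The extraction text in the labels speaks of vascular samples although the titles name whole organs, the midbrain library carries the tissue label eye, and 1 adrenal library carries the label adipose. In whole-organ RNA, fewer cells of a type and less RNA per cell cannot be told apart.

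Several libraries went against their labels. The library labelled liver T3F held surfactant and airway genes at a summed 55673 TPM, against 0 TPM in liver T426, and the library labelled lung T3F held hepatocyte genes at 92541 TPM. Retina T426, hippocampus T426, femur T426 and sciatic nerve T426 held sperm cell genes at a summed 677 to 32848 TPM. Renal pelvis T426 held hepatocyte genes at 13214 TPM, against 3.57 TPM in renal pelvis T173F. Pancreas T173F, a shallow library of 1573234 expected counts, had 40 of the 51 members at 0, which does not by itself speak against its label. Total expected counts ran from 678819 to 41309569 per library (median 16406604), and all 8 libraries of T426 lay between 1691561 and 3827321. A value of 0 in those shallow libraries allows up to 3 counts, which was 0.0726 to 4.42 CPM (counts scaled to the library's total) over the 59 libraries. Many chemokine transcripts are short, so a high TPM can rest on few counts: in thymus, 3.0 counts of Ccl1 gave 58.7 TPM, whereas 1391 counts of Ccr9 gave 477 TPM.

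Every member reached 1 TPM in some library, and 12 did so in 50 or more of the 59. Between 10 and 45 members reached 1 TPM in a library. The 8 members with the highest mean TPM were the lymphoid ligand Ccl21a (328), the stromal ligand Cxcl12 (242), the B cell attractant Cxcl13 (229), Cx3cl1 (137), the tissue-resident ligand Cxcl14 (90.8), the Ccr7 ligand Ccl19 (76.6), Cxcl16 (63.4) and the receptor Cxcr4 (62.4). Cxcr4 was thus the only receptor among them. At the other end, 5 members reached 1 TPM in 10 or fewer libraries, namely Cxcl15, Ccl1, Ccr8, Ccr4 and Cxcl3.

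The members' levels peaked most often in the thymus and spleen libraries. Of the 51 members, 11 had their highest TPM in thymus and 8 in spleen, followed by the library labelled liver T3F and rectum T173F with 4 each. These 2 lymphoid organs held the highest level of 11 of the 17 receptors, and bone marrow held 3 more. Remaining peaks were spread over many libraries, and the share of all genes that peaked in thymus or spleen was not worked out. The thymus peaks of Ccl1 and Ccr8 rested on 3.0 and 5.0 counts. Summed over all members, the level was highest in thymus (7979 TPM) and spleen (7793), then in rectum T173F (7134), colon T3F (6565) and kidney artery T3F (6377), and lowest in pancreas T3F (53.4). A member was counted as organ-enriched, by size alone, where its highest organ mean reached 1 TPM and was 4 or more times the next organ's mean. This held for 14 members (27.5%), against 15.8% of all genes. Thymus accounted for 7 of them and spleen for 4, with 1 each in trachea, pancreas and the organ labelled liver.

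**Figure D1:**
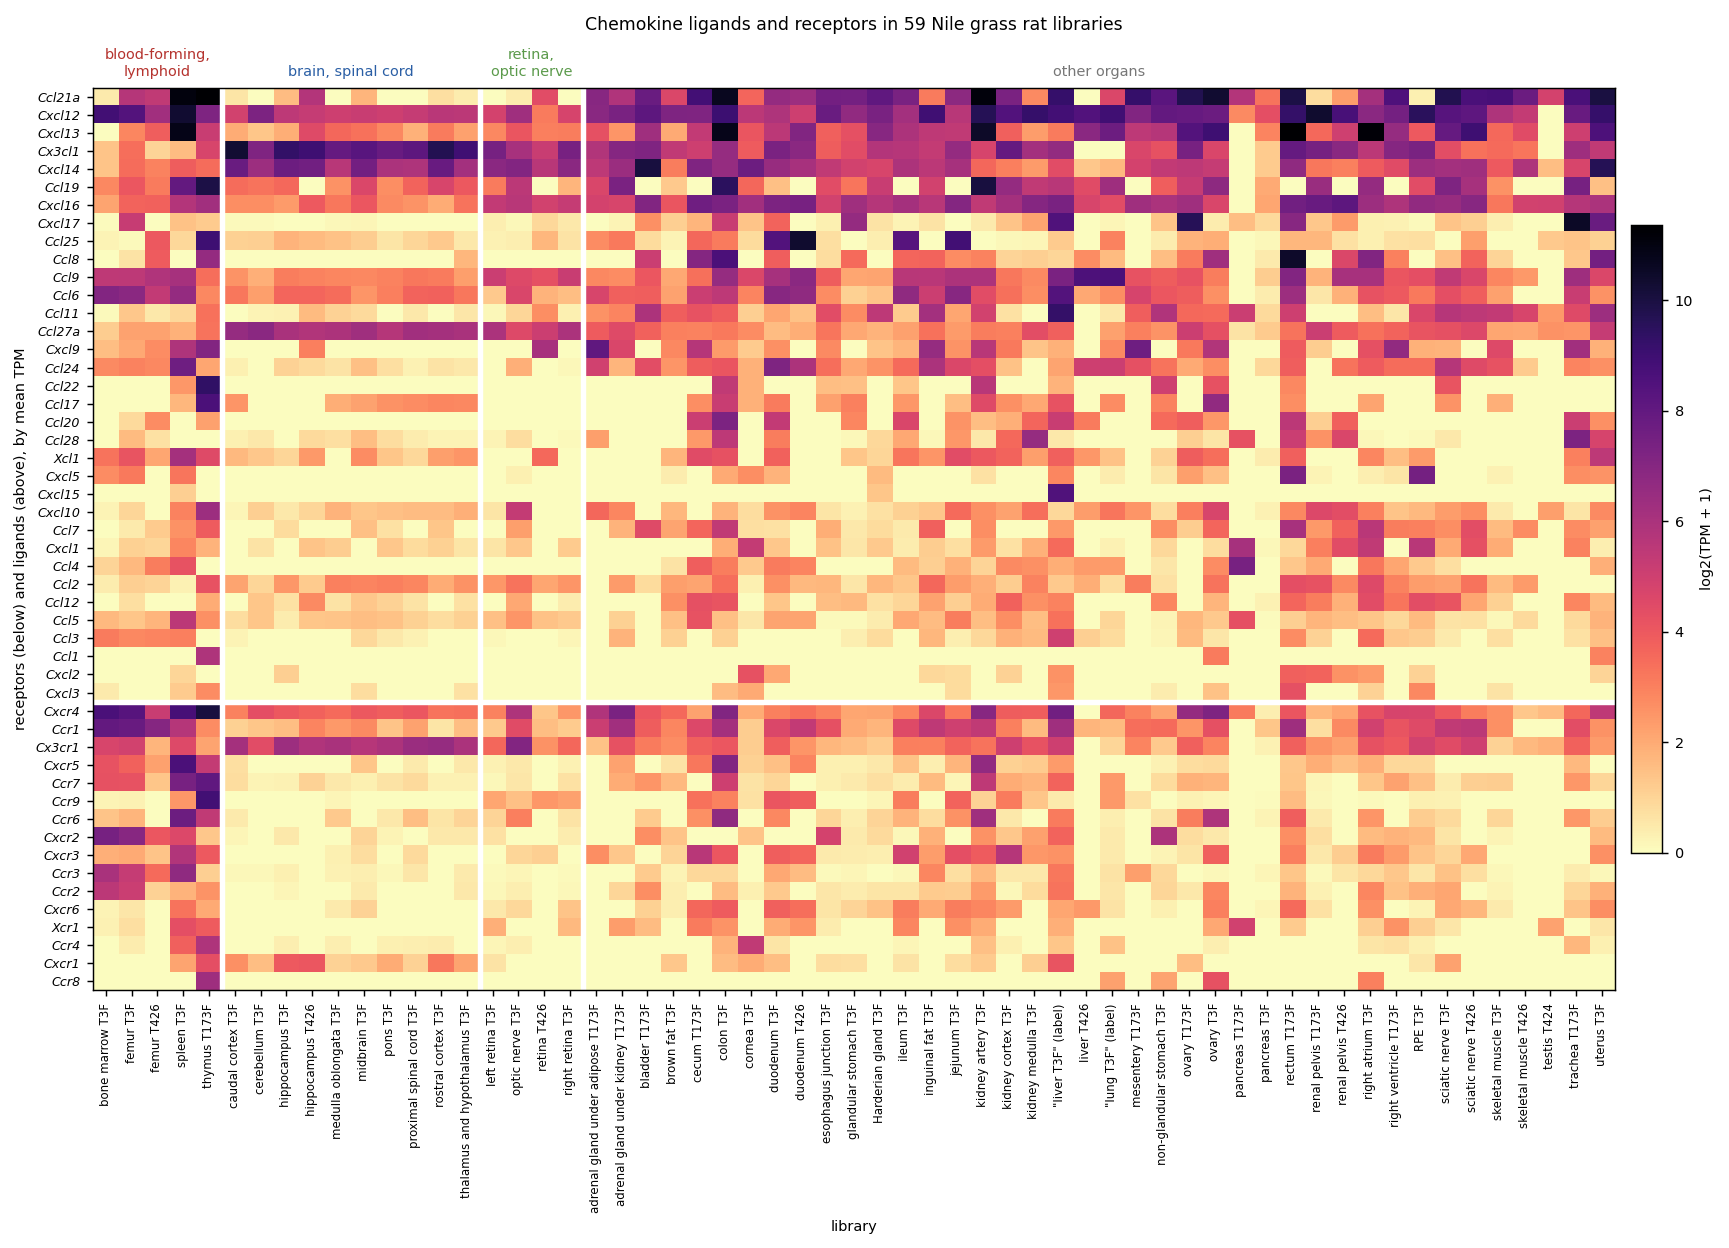
Heat map of 50 members in the 59 libraries, coloured by log2(TPM + 1); ligands are above and receptors below the white line, each ordered by mean TPM, and libraries are grouped as blood-forming and lymphoid, brain and spinal cord, retina and optic nerve, and other organs. Thymus and spleen are dark across many rows, brain libraries are dark in Cx3cl1, Ccl27a, Cx3cr1 and Cxcl14 and pale in most others, and kidney artery and colon are dark in Ccl19, Ccl21a and Cxcl13.

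The first comparison set blood-forming and lymphoid organs against other organs, with sites standing as replicates, so that its p-values measure the spread between organs of mostly 1 animal. Bone marrow T3F and femur T3F, a bone with its marrow, came from the same animal but counted as separate sites. Most members called higher in the blood-forming and lymphoid group were receptors. Of the 51 members, 46 passed the filter on low counts and were tested with edgeR's quasi-likelihood test with Benjamini-Hochberg adjustment, and a member was called at an adjusted p below 0.05 and a log2 fold change of at least 1 in size. Called higher were 11 members (8.12% of all genes were called in that direction) and called lower was 1 (6.83%). The higher ones comprised 8 of the 16 receptors tested and 3 of the 30 ligands. The median log2 fold change was 1.01 over the members tested and -0.41 over all genes tested.

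Receptors of granulocytes and monocytes made up 1 part of these calls. Ccr3, the receptor of eosinophils, stood at 63.3 TPM in bone marrow, 37.4 in femur T3F, 10.6 in femur T426, 104 in spleen and 1.20 in thymus, against a lowest value of 0, a median of 0.427 and a highest of 8.23 TPM over the 40 other libraries. All but thymus exceeded every other library, and the log2 fold change was 5.71 ± 0.66 (SE; adjusted p = 9.31e-10). Ccr1, carried by monocytes and neutrophils, stood at 245 TPM in bone marrow, 230.0 in femur T3F, 128 in femur T426, 51.3 in spleen and 5.60 in thymus, against 0 to 78.3 TPM (median 15.3) in other organs. Marrow and both femurs lay above all other organs, and the log2 fold change was 3.59 ± 0.58 (adjusted p = 3.20e-06).

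Cxcr2, the neutrophil receptor for Cxcl1, Cxcl2 and Cxcl5, had 169 TPM in bone marrow, 122 in femur T3F, 15.5 in femur T426, 23.0 in spleen and 1.47 in thymus, against 0 to 59.8 TPM (median 0.401) in other organs. Its highest level outside the group was in non-glandular stomach, so that the groups overlapped (log2 fold change 4.70 ± 0.92, adjusted p = 0.000114). Ccr2, the monocyte receptor for Ccl2, had 45.1 TPM in bone marrow and 33.3 in femur T3F, 1.04 in femur T426, 2.44 in spleen and 4.79 in thymus, against 0 to 8.95 TPM (median 0.501) in other organs. Only marrow and femur T3F, libraries of the same animal, lay above all other organs (4.20 ± 0.73, adjusted p = 1.45e-05). No alternative run left out both of these libraries. The 6 neutrophil markers summed to 70104 TPM in bone marrow, 55016 in femur T3F and 90811 in femur T426. They summed to 1090 TPM in spleen and 96.9 in thymus, against 0 to 1535 TPM in other organs. Femur T426, the highest in these markers, had less Cxcr2 and Ccr2 than marrow and femur T3F, so markers and receptors did not rank alike. The part of neutrophils in these results was not tested.

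Receptors of lymphocytes were the other part. Cxcr4, the receptor of Cxcl12, which holds blood cell precursors in marrow, had 407 TPM in bone marrow, 322 in femur T3F, 34.5 in femur T426, 434 in spleen and 1053 in thymus, against 0 to 187 TPM (median 10.2) in other organs. All but femur T426 exceeded every other library (4.09 ± 0.55, adjusted p = 5.73e-08). Ccr7, which brings T cells and dendritic cells to the T cell zones of lymphoid organs, had 17.8 TPM in bone marrow, 17.2 in femur T3F, 1.58 in femur T426, 165 in spleen and 265 in thymus, against 0 to 41.9 TPM (median 0.934) in other organs. Spleen and thymus stood above all others, and marrow and femur T3F within the range of the other organs (4.46 ± 0.72, adjusted p = 3.42e-06).

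Cxcr5, the follicle-homing receptor of B cells, had 401 TPM in spleen, 38.2 in thymus, 17.3 in bone marrow, 12.5 in femur T3F and 3.77 in femur T426, against 0 to 135 TPM (median 0.769) in other organs. The call for Cxcr5 (3.79 ± 0.96, adjusted p = 0.00327) rested on the spleen, without which the log2 fold change was 1.75 (adjusted p = 0.305). Ccr9, the homing receptor of thymocytes and gut lymphocytes, had 477 TPM in thymus, 4.58 in spleen and at most 0.232 in marrow and femurs, against 0 to 16.2 TPM in other organs. Its fold change was 4.51 ± 1.02 (adjusted p = 0.000951) and turned to -1.12 (adjusted p = 0.673) without the thymus. Ccr4 (2.63 ± 1.1, adjusted p = 0.0825) and Ccr6 (2.68 ± 1.0, adjusted p = 0.0532) did not pass.

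Cx3cl1, the fractalkine gene, was the single member called lower. It had 1.66 TPM in bone marrow, 9.73 in femur T3F, 1.03 in femur T426, 2.0 in spleen and 25.4 in thymus, against 0 to 242 TPM (median 43.3) in other organs, and all 5 lay within the range of the other organs (-3.12 ± 0.92, adjusted p = 0.0143). Without bone marrow its adjusted p was 0.0604, and without spleen 0.0505. Ccl3, a ligand of Ccr1 close in sequence to Ccl4, had 5.99 to 7.78 TPM in marrow, femurs and spleen and 0 in thymus, against 0 to 30.9 TPM (median 0.551) in other organs (2.57 ± 0.91, adjusted p = 0.0424).

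**Figure D2:**
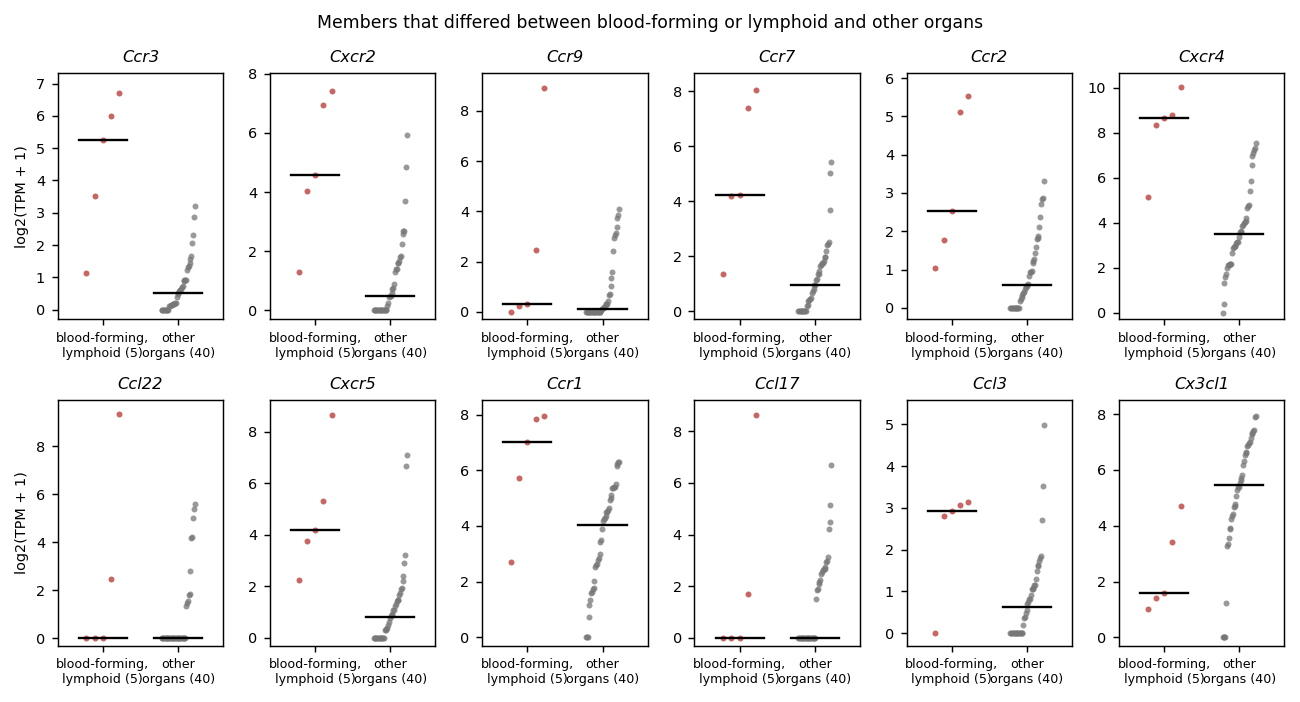
The 12 members called between blood-forming and lymphoid organs (left, 5 libraries) and other organs (right, 40 libraries); each point is a library, the vertical axis is log2(TPM + 1) and black lines are medians. For Ccr3 and Cxcr4, 4 of the 5 points on the left lie above all on the right, whereas Ccr9, Ccl17 and Ccl22 have a single high point, the thymus.

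Among the ligands of these receptors, Ccl21a, Ccl19, Cxcl13 and Cxcl12 were not called between the classes. Ccl21a and Ccl19, the 2 ligands of Ccr7, had 2592 and 968 TPM in thymus and 2141 and 248 TPM in spleen, but Ccl21a had 0.396 and Ccl19 had 6.09 TPM in bone marrow. Other organs reached as high: Ccl19 had 1059 TPM in kidney artery T3F and 712 in colon T3F, and Ccl21a had 2228 and 1625 TPM there. The log2 fold change was 1.19 ± 1.08 for Ccl19 (adjusted p = 0.430) and 1.12 ± 1.04 for Ccl21a (adjusted p = 0.445). Mouse has several near-identical Ccl21 genes, so the level of Ccl21a is uncertain where reads are shared.

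Cxcl13, the ligand of Cxcr5, had 1843 TPM in spleen, 34.5 in thymus, 13.2 in femur T426, 6.34 in femur T3F and 0 in bone marrow. It was as high in rectum T173F (2622), right atrium T3F (2339), colon T3F (1808) and kidney artery T3F (1438). The log2 fold change was 0.33 ± 1.11 (adjusted p = 0.855). Cxcl12 had 1260 TPM in spleen, 475 in bone marrow, 338 in femur T3F, 148 in thymus and 74.6 in femur T426, against 0 to 1321 TPM (median 215) in other organs (0.91 ± 0.54, adjusted p = 0.216).

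Kidney artery T3F and colon T3F carried ligands and receptors of the lymphocyte-placing axes. Cxcr5 stood at 101 TPM in kidney artery and 135 in colon, Ccr7 at 41.9 and 31.5 TPM and Ccr6 at 77.5 and 103 TPM. In the same libraries 6 B cell markers summed to 459 TPM in kidney artery and 437 TPM in colon, against 2152 TPM in spleen, and 6 T cell markers to 393 and 324 TPM, against 1187 TPM in spleen. Right atrium T3F had Cxcl13 at 2339 TPM (4356 counts) but Cxcr5 at 2.71 TPM. Without these 3 libraries, a choice made after seeing the data, 11 of 44 members were called between the lymphoid and the other organs, against 12 of 46 with them. Ccl17 and Ccl22, which were among the 12, then fell below the filter on low counts and were not tested. The 11 therefore included a member that was not among the 12.

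The thymus held a group of ligands and receptors at higher levels than the rest of its class. Ccl25, which attracts thymocyte precursors and is made by thymic and gut epithelium, had 508 TPM (1462 counts) there, against 0.0775 to 15.1 TPM in the other 4 libraries of the class. Outside the class, small intestine had Ccl25 at 319 to 1331 TPM. Ccl22 and Ccl17, the 2 ligands of Ccr4 made by dendritic and thymic medullary cells, had 649 TPM (85.0 counts) and 394 TPM (55.0 counts), against 4.59 and 2.28 TPM in spleen and 0 in marrow and both femurs. Both were called in the class test (Ccl22 3.99 ± 0.98, adjusted p = 0.00289, and Ccl17 2.92 ± 0.87, adjusted p = 0.0154). Without the thymus Ccl22 turned to -1.62, and Ccl17 fell below the filter on low counts and could not be tested. DESeq2 did not call either (adjusted p = 0.214 for Ccl22 and 0.0636 for Ccl17).

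Ccr4 had 57.1 TPM (79.0 counts) in thymus, 12.7 in spleen and at most 0.325 in marrow and femurs. Outside the class its highest level was in cornea T3F (40.3 TPM, 153 counts). Ccl1 and its receptor Ccr8 had 58.7 and 78.5 TPM in thymus, which rested on 3.0 and 5.0 counts. Their organ enrichment therefore rested on a handful of reads. The interferon-induced ligand Cxcl10 was also highest in thymus (80.9 TPM), against 16.3 TPM in the next organ, ovary. The 4 thymic epithelium markers summed to 2006 TPM in thymus, against 4.60 TPM in spleen, so the library carries the cells its label names.

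The spleen was the organ enriched for Cxcr5, Ccr6, Ccl24 and Ccl5. Ccr6, the receptor of Ccl20 on B cells, had 206 TPM there, against 40.6 TPM in thymus and 103 TPM in colon T3F. Ccl24, an eosinophil attractant, had 200 TPM in spleen, against 146 TPM in duodenum T3F. Ccl5, an attractant of T cells, had 45.1 TPM in spleen, against 18.6 TPM in pancreas T173F. Xcl1 and its receptor Xcr1, which link T and natural killer cells with cross-presenting dendritic cells, had 70.7 and 19.0 TPM in spleen. Xcr1 was higher only in pancreas T173F (29.5 TPM, 14 counts).

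Femur, a bone with its marrow, could be tested with both animals against the mean of the other 9 sites that had 2 animals. Of the 42 members tested, 11 were called higher in femur (9.72% of all genes) and none lower. They were Cxcr2, Ccr3, Ccr2, Ccl3, Cxcr5, Ccr1, Ccr7, Cxcl5, Cxcr4, Ccl25 and Ccl6, of which 7 are receptors. Ccr1 had 230.0 and 128 TPM in femurs T3F and T426, against at most 43.0 TPM as the mean of any other tested site, sciatic nerve (adjusted p = 0.000113). Ccr3 had 37.4 and 10.6 TPM, against at most 4.11 TPM (adjusted p = 3.10e-05), and Cxcr2 had 122 and 15.5 TPM, against at most 6.03 TPM (adjusted p = 2.07e-05). These 3 kept their call in every alternative run.

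The 2 femurs differed widely in most of the 11 genes. Ccr2 had 33.3 TPM in femur T3F and 1.04 in femur T426, and Cxcl5, a neutrophil attractant, had 7.96 and 0 TPM. Ccl25 went the other way, with 0.0775 and 15.1 TPM. The call for Cxcl5 changed sign without femur T3F (log2 fold change -2.58) and that for Ccl25 without femur T426 (-3.71). B cell markers summed to 308 TPM in femur T3F and 15.3 in femur T426, sperm cell genes were present at 6568 TPM in femur T426, and airway genes at 3692 TPM in femur T3F; their part in the differences was not tested.

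In the intestine, the ligand Ccl25 had the largest fold change between small and large intestine among the members called. Ccl25 had 344 TPM in duodenum T3F, 1331 in duodenum T426, 474 in jejunum and 319 in ileum, against 11.3 TPM in cecum, 7.83 in colon and 2.30 in rectum. The groups did not overlap in TPM, which held in that direction for 2 of 35 tested members and 3.68% of all genes (log2 fold change 7.15 ± 0.93, adjusted p = 0.00569). Ccr9 had 16.2, 13.4, 12.2 and 7.42 TPM in the same small intestine libraries, against 9.31, 6.71 and 2.0 TPM in cecum, colon and rectum, and did not pass (1.73 ± 0.58, adjusted p = 0.0751).

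Small intestine differed from large intestine in 11 of 35 tested members, 3 higher (7.15% of all genes) and 8 lower (8.22%). The median log2 fold change was -0.14 over the members tested and -0.03 over all genes tested. With the animal as a block none of the 11 was called, and the smallest blocked adjusted p was 0.131. Cecum and rectum came from T173F and the small intestine from T3F and T426, so segment and animal cannot be fully told apart. The other 2 higher members were Ccl24, with 10.7 to 146 TPM in small intestine, against 13.1 to 16.2 TPM in large intestine (2.80 ± 0.81, adjusted p = 0.0479), and Ccl6, with 104 to 123 TPM, against 33.8 to 80.4 TPM (1.96 ± 0.28, adjusted p = 0.00735). Only Ccl6 of the 2 had groups that did not overlap. The calls for Ccl24 and Cxcl13 were each lost in 8 of 11 alternatives. Ccl6 and Ccl9 are close relatives, as are Ccl2, Ccl7, Ccl8, Ccl11 and Ccl12, so reads may be shared between them.

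Of the 8 members lower in small intestine 7 were ligands. Ccl8, a monocyte attractant, had 13.4 TPM in duodenum T3F, 0 in duodenum T426, 5.59 in jejunum and 11.8 in ileum, against 131 TPM in cecum, 400 in colon and 1395 in rectum (-5.11 ± 0.81, adjusted p = 0.00988). Ccl7 had 0 to 0.631 TPM, against 11.7 to 66.0 TPM (-5.81 ± 0.88, adjusted p = 0.00863), and Ccl12 had 0 to 1.57 TPM, against 11.8 to 18.3 TPM (-2.93 ± 0.58, adjusted p = 0.0173). None of these 3 genes overlapped between the segments, but in TPM 9 of the 35 members tested and 46.5% of all genes lay wholly lower in small intestine, so separation in that direction was common.

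Ccl11, the eosinophil attractant eotaxin, had 1.36 to 3.28 TPM in small intestine, against 13.8 to 31.8 TPM in large intestine (-2.24 ± 0.49, adjusted p = 0.0216). Ccl21a had 82.7 to 163 TPM, against 465 to 1625 TPM (-2.24 ± 0.39, adjusted p = 0.0126), and Cxcl12 had 31.4 to 70.9 TPM, against 143 to 607 TPM (-2.06 ± 0.43, adjusted p = 0.0196). These 3 did not overlap between the segments in TPM.

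Cxcl13 was also called lower in small intestine (-3.60 ± 1.03, adjusted p = 0.0474), but cecum had 39.1 TPM, below all 4 small intestine libraries (40.5 to 137 TPM), whereas colon had 1808 and rectum 2622. Macrophage markers summed to 355 to 502 TPM in small intestine, against 934 to 3352 TPM in large intestine, and mesenchyme markers to 384 to 563 TPM, against 1275 to 3686 TPM. B cell markers were high in colon alone (437 TPM, against 12.1 in cecum and 16.9 in rectum). Airway and surfactant genes summed to 0.768 to 2.45 TPM in small intestine, against 14.4 TPM in cecum, 4019 in colon and 4738 in rectum, of which the airway gene Scgb1a1 gave 4017 TPM in colon and 4736 in rectum. The part of these genes in the differences was not tested. The number of calls fell to 5 without jejunum and to 5 without rectum.

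**Figure D3:**
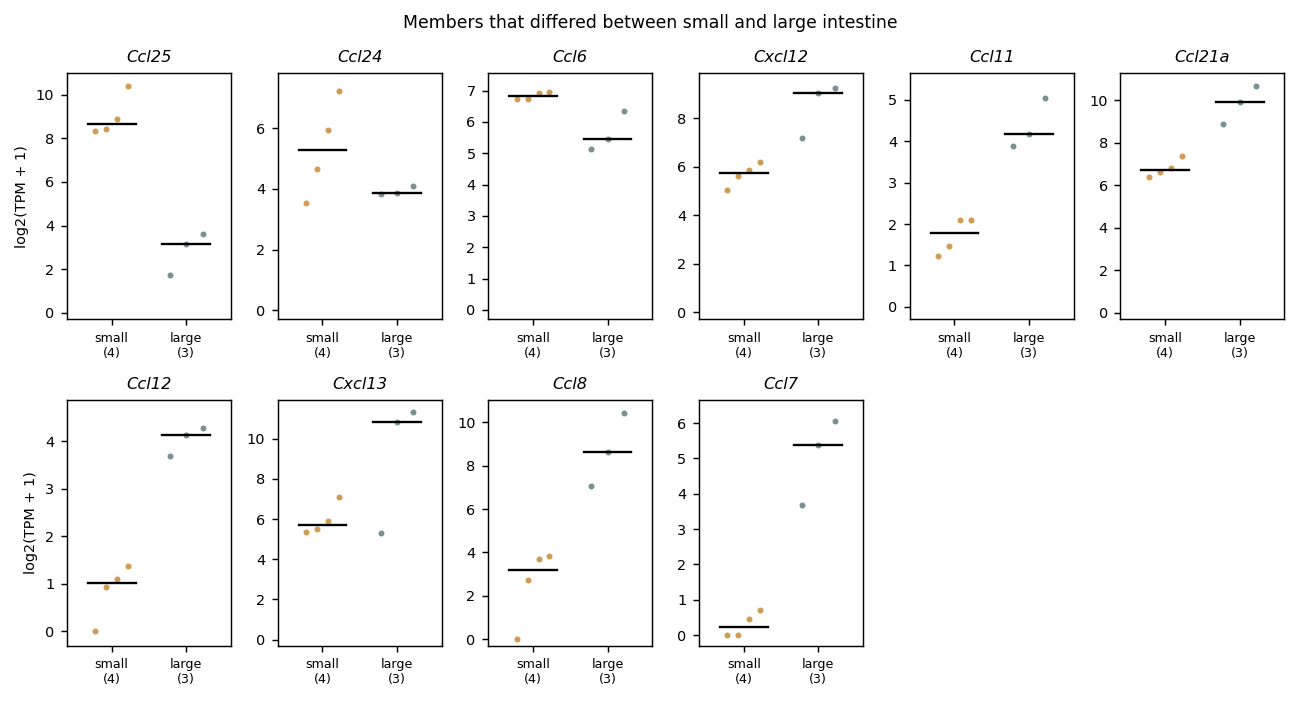
Of the members called, 10 are plotted in small intestine (left, 4 libraries) and large intestine (right, 3 libraries), ordered by fold change; points are libraries, the vertical axis is log2(TPM + 1) and black lines are medians. Ccl25 and Ccl6 lie higher on the left, and Cxcl13 has a low point on the right, the cecum.

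Mucosal ligands of the gut did not all follow the segments. Ccl20, which attracts Ccr6-bearing cells to gut lymphoid tissue, had 39.8 TPM in duodenum T3F, 0 in duodenum T426, 4.86 in jejunum and 24.9 in ileum, against 33.5 TPM in cecum, 152 in colon and 44.5 in rectum (-1.06 ± 0.85, adjusted p = 0.411). Ccl28, a ligand for plasma cells of mucosal tissue, had 0 to 7.37 TPM, against 4.39 to 43.1 TPM (-1.76 ± 0.78, adjusted p = 0.146). Cxcl16 and its receptor Cxcr6 were present throughout, at 70.6 to 166 and 7.48 to 12.8 TPM in small intestine, against 156 to 194 and 10.48 to 14.2 TPM in large intestine.

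Duodenum against the mean of the other 9 replicated sites gave 9 calls of 42, all higher (8.33% of all genes). They were Ccl25, Ccr9, Cxcr3, Ccl24, Ccl20, Cxcr6, Ccl6, Cxcr5 and Cxcl16. Ccr9 had 16.2 and 13.4 TPM in duodenums T3F and T426, against at most 4.03 TPM as the mean of another site, retina (adjusted p = 4.96e-05). Ccl25 (adjusted p = 2.31e-05), Ccr9 and Ccl6 (adjusted p = 0.00185) were called under every alternative. Ccl20 rested on duodenum T3F (30.0 counts), since duodenum T426 had none; without duodenum T3F its fold change turned to -2.39. The call for Cxcr5 was lost in 21 of 26 alternatives. The duodenum calls numbered 3 without duodenum T3F and 4 without duodenum T426.

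Brain and spinal cord were set against the same 40 libraries of other organs, and most members were lower there. Of 46 members tested, 36 were called lower in brain and spinal cord (29.0% of all genes) and 4 higher (14.9%). Among those tested, 5 had no count in any brain or spinal cord library. They passed the filter on low counts through libraries outside brain, so lower was the only direction open to them. The median log2 fold change of the members tested was -3.79 (-3.72 with the members that had no counts in brain set at their bounds), and that of all genes tested was -0.42. DESeq2's scaling moved the median of all genes in this comparison by 0.10 on the log2 scale, and no member changed sign under it.

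The 4 higher members were Cx3cl1, Ccl27a, Cx3cr1 and Cxcr1. Cx3cl1 had a lowest value of 142 TPM in cerebellum, a median of 394 and a highest of 1247 in caudal cortex, against 0 to 242 TPM (median 43.3) in other organs. The order within brain was caudal cortex (1247), rostral cortex (823), hippocampus (630.4 in T3F and 505 in T426), thalamus and hypothalamus (483), midbrain (305), spinal cord (279), medulla oblongata (238), pons (226) and cerebellum (142). Most sites had 1 library, so neighbours in this order cannot be told apart by a test. The log2 fold change against other organs was 2.61 ± 0.46 (adjusted p = 5.34e-06).

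Its receptor Cx3cr1 had a lowest value of 20.4 TPM in cerebellum, a median of 62.0 and a highest of 92.2 in rostral cortex, against 0 to 31.8 TPM (median 6.73) in other organs. All brain libraries but cerebellum lay above every other organ (2.45 ± 0.42, adjusted p = 2.69e-06). Optic nerve T3F, outside this test, had the highest level of all 59 libraries, 132 TPM, whereas the retina libraries had 11.2, 11.4 and 5.13 TPM. The 6 microglia markers summed to 110 to 188 TPM in brain and spinal cord and 325 TPM in optic nerve, against 3.40 to 1216 TPM in other organs, so that list did not separate brain from other organs here. The 4 neuron markers summed to 1055 to 2508 TPM in brain and spinal cord, against 0 to 48.7 TPM in other organs.

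Ccl27a, a skin ligand in mouse, had 51.0 to 114 TPM (median 66.3) in brain and spinal cord, against 0 to 37.5 TPM (median 7.24) in other organs, with no overlap, as for 4.58% of all genes in that direction (2.52 ± 0.28, adjusted p = 7.22e-11). In mouse this gene shares its locus with Il11ra1, and the sources do not state whether counting used strand, so its reads are not certain to be those of the chemokine. Cxcr1, a neutrophil receptor close in sequence to Cxcr2, had 1.04 to 15.8 TPM (median 3.16), against 0 to 17.0 TPM (median 0) in other organs (1.98 ± 0.66, adjusted p = 0.00960). Its highest brain levels were in hippocampus T426 (15.8 TPM, 3.0 counts) and hippocampus T3F (14.7 TPM, 13 counts), and the highest among other organs was in the library labelled liver T3F; thymus, outside this test, had 18.8 TPM. Neutrophil markers summed to 7.59 to 138 TPM in brain and spinal cord, against 0 to 1535 TPM in other organs.

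Cxcl14 was as abundant in brain without being called: it had 48.6 to 228 TPM (median 133), against 0 to 1063 TPM (median 38.4) in other organs (0.53 ± 0.57, adjusted p = 0.448). Cortex, hippocampus and midbrain had 185 to 228 TPM and the other brain sites 48.6 to 82.2 TPM. Outside brain the highest levels were in bladder (1063) and uterus (810). Ccl2 (-0.28 ± 0.64, adjusted p = 0.741) and Cxcr4 (-1.39 ± 0.61, adjusted p = 0.050) also did not pass; Cxcr4 had 6.65 to 19.2 TPM in brain and spinal cord, against 0 to 187 TPM in other organs.

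Among the members lower in brain and spinal cord, Cxcl16 had 2.94 to 15.6 TPM, against 0 to 279 TPM (median 70.7) in other organs (-3.81 ± 0.48, adjusted p = 2.38e-09). Cxcl12 had 28.9 to 150 TPM, against 0 to 1321 TPM (-2.94 ± 0.54, adjusted p = 1.22e-05), with its only brain value above 46.9 TPM in cerebellum. Ccl21a had a median of 0.418 TPM and a highest of 52.8 in hippocampus T426, against a median of 169 TPM in other organs (-6.56 ± 1.35, adjusted p = 6.87e-05).

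Further members with large fitted differences and some counts in brain were Cxcl17, Ccl8, Ccr9, Cxcl9 and Ccl11. Cxcl17 had 0 to 0.137 TPM in brain and spinal cord, against 0 to 1494 TPM (median 1.0) in other organs (-10.79 ± 2.40, adjusted p = 0.000202). Ccl8 (-7.22 ± 1.74, adjusted p = 0.000560), Ccr9 (-6.52 ± 1.62, adjusted p = 0.000744) and Cxcl9 (-6.03 ± 1.39, adjusted p = 0.000329) had counts in 1 brain library each, and Ccl11 had 0 to 2.11 TPM, against 0 to 599 TPM in other organs (-6.42 ± 1.27, adjusted p = 3.55e-05). For Ccl25 the medians ran against the fitted direction: it had 0.446 to 2.496 TPM (median 1.23) in brain and spinal cord, against 0 to 1331 TPM (median 0.718) in other organs, where its 4 highest levels were those of small intestine (-6.31 ± 1.98, adjusted p = 0.00644). No count of Ccl4, Ccl20, Ccl22, Cxcl5 or Xcr1 was found in any brain or spinal cord library. Against 3 counts over the 10 libraries, these 5 were at least 41.4-fold, 27.1-fold, 5.19-fold, 117-fold and 28.8-fold lower there than the mean of other organs. Single libraries carried 3 of these bounds: that of Ccl4 was 10.8-fold and that of Xcr1 17.2-fold without pancreas T173F, and that of Cxcl5 was 65.2-fold without RPE T3F. Zeros were not particular to brain. Over all 59 libraries, brain included, Ccl4 was at 0 in 30, Ccl20 in 37, Ccl22 in 46, Cxcl5 in 36 and Xcr1 in 33.

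The lymphocyte receptors followed: Ccr7 (-3.10 ± 0.92, adjusted p = 0.00402), Cxcr5 (-4.38 ± 1.29, adjusted p = 0.00389), Cxcr3 (-5.25 ± 1.25, adjusted p = 0.000473) and Ccr6 (-3.62 ± 1.20, adjusted p = 0.00977) were all lower in brain and spinal cord. T cell markers summed to 0.566 to 6.21 TPM there, against 0.814 to 393 TPM in other organs, and B cell markers to 0.999 to 9.63 TPM, against 0.151 to 459 TPM; their part in the differences was not tested. The count of calls was 39 or 40 when each brain library was left out in turn.

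**Figure D4:**
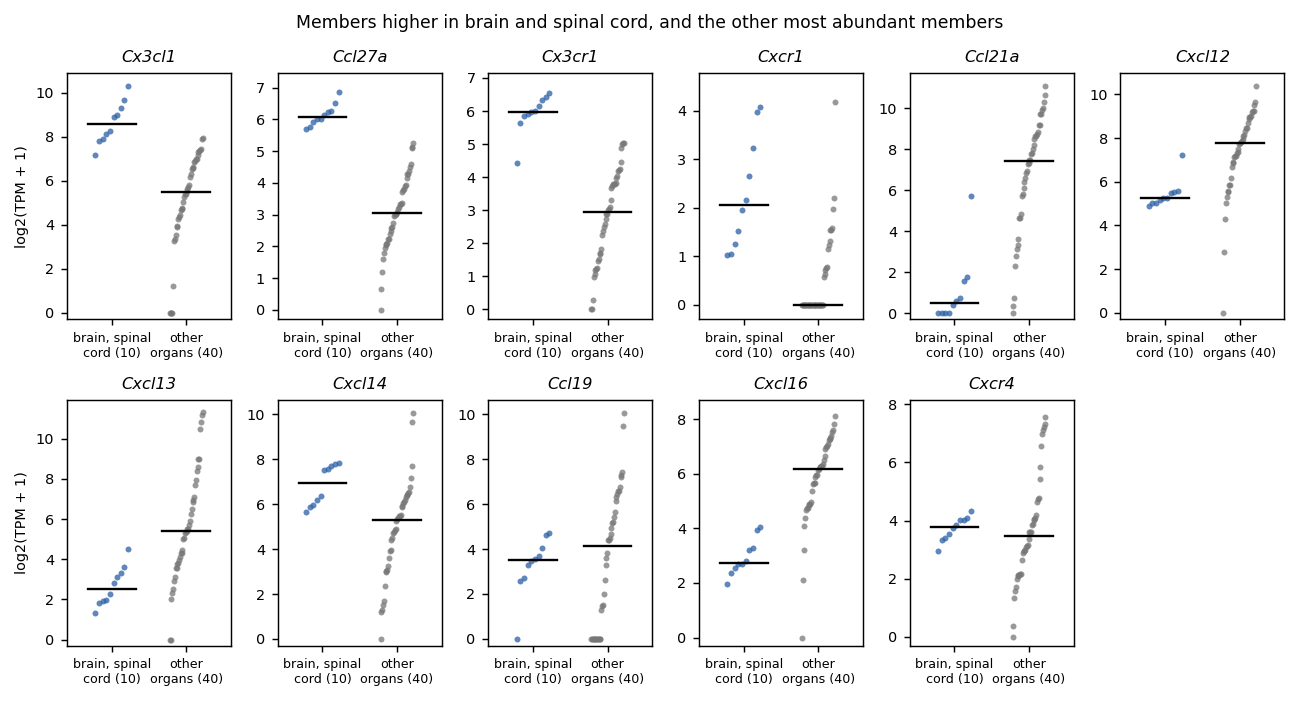
The 4 members called higher in brain and spinal cord (left, 10 libraries) than in other organs (right, 40 libraries), followed by the other members among the 8 with the highest mean; points are libraries, the vertical axis is log2(TPM + 1) and black lines are medians. Ccl27a does not overlap between the groups, and the low point of Cx3cr1 on the left is the cerebellum.

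The hippocampus, with both animals against the mean of the other 9 replicated sites, gave 4 calls of 42, all higher (12.9% of all genes). These were Cx3cl1 (630.4 and 505 TPM in T3F and T426, adjusted p = 0.00184), Cx3cr1 (80.4 and 56.6 TPM, adjusted p = 0.0131), Cxcl14 (206 and 187 TPM, adjusted p = 0.00442) and Cxcr1 (14.7 and 15.8 TPM, adjusted p = 0.0138). The next highest site means were 145 TPM for Cx3cl1 in renal pelvis and 26.1 TPM for Cx3cr1 in sciatic nerve. No call was left without hippocampus T3F, and 2 without hippocampus T426, the library that held sperm cell genes.

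**Figure D5:**
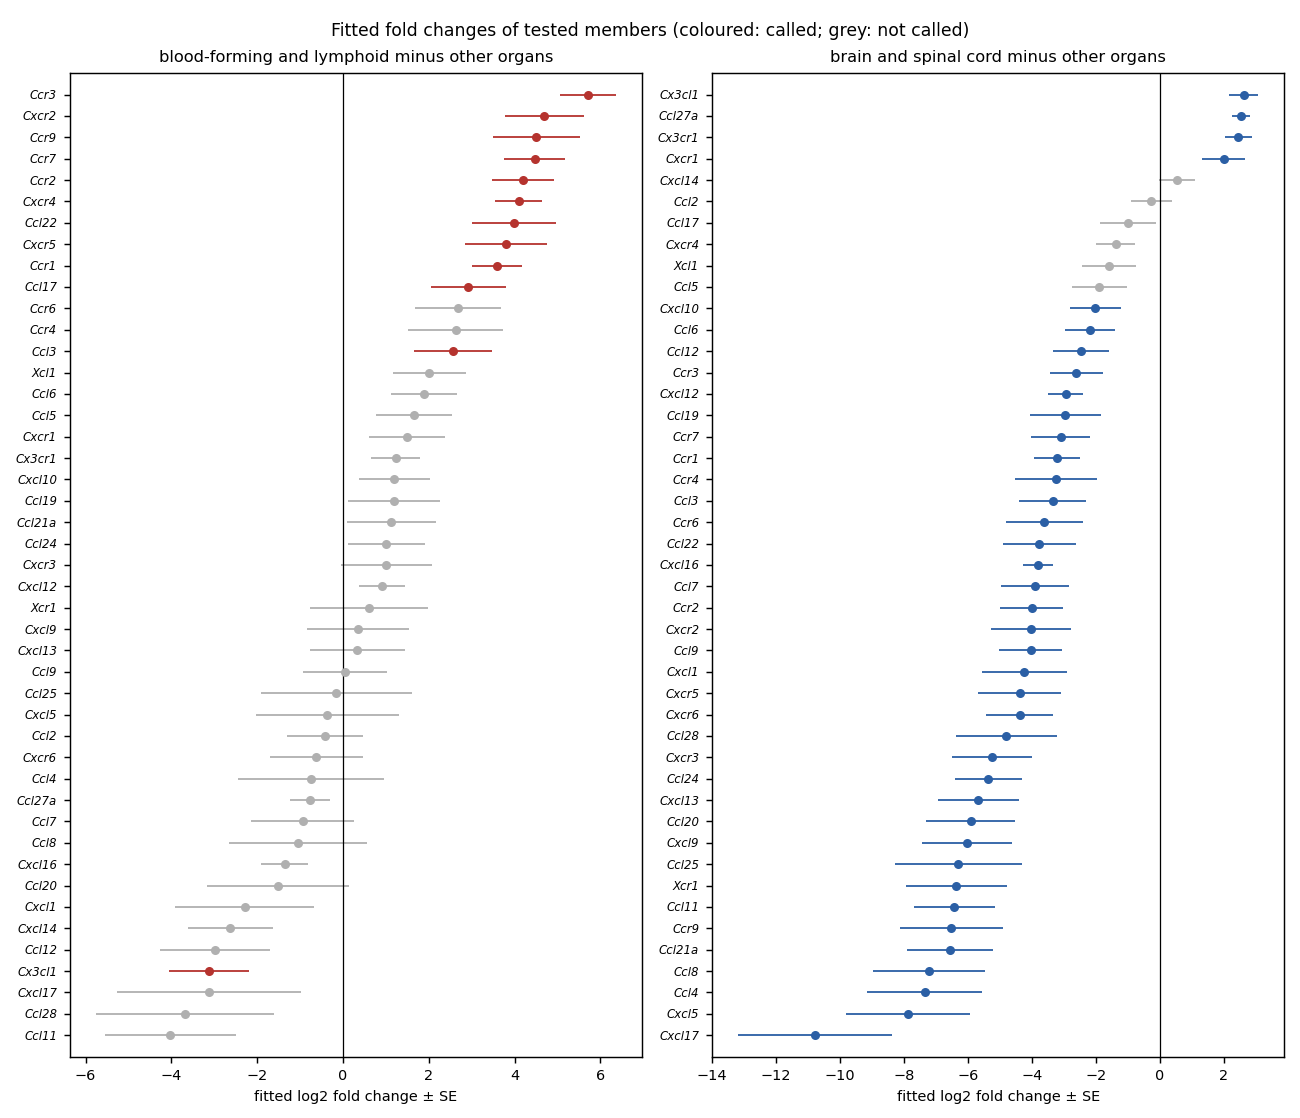
Fitted log2 fold changes with their standard errors for 45 of the 46 tested members, blood-forming and lymphoid minus other organs (left panel) and brain and spinal cord minus other organs (right panel); coloured points were called. Both panels share the 40 other libraries, and the fitted sizes of Ccl4, Ccl20, Ccl22, Cxcl5 and Xcr1 in the right panel have no scale because brain had no counts.

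Some ligands of epithelia were high in a few libraries and low in most. Cxcl17, a mucosal attractant of myeloid cells, had 1494 TPM in trachea T173F, 783 in ovary T173F, 223 in uterus T3F and 356 in the library labelled liver T3F, against a median of 0.345 TPM over all 59 libraries, and it reached 1 TPM in 23 of them. The 2 ovaries were far apart, with 783 TPM in T173F and 0.345 in T3F. Airway and surfactant genes summed to 79772 TPM in trachea, 42.3 TPM in ovary T173F and 3.30 TPM in uterus. Cxcl15, a lung epithelial ligand in mouse, had 357 TPM (279 counts) in the library labelled liver T3F and at most 1.56 TPM elsewhere.

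Ccl28 had 149 TPM in trachea, 92.0 in kidney medulla, 43.1 in colon T3F and 34.2 in rectum T173F, against a median of 0.271 TPM. Cxcl16 was more even, at 1 TPM or more in 58 libraries, and highest in renal pelvis (279 TPM in T426 and 224 in T173F). Ccl9 was highest in the hepatocyte libraries, with 400 TPM in the library labelled lung T3F and 385 in liver T426, against 158 TPM in the library labelled liver T3F. Ccl11 was highest in the library labelled liver T3F (599 TPM, 3137 counts), against 0 in liver T426.

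Inflammatory ligands were low in most places. Ccl2 had a median of 3.41 TPM over the 59 libraries and at most 22.4, in right atrium. The neutrophil attractants Cxcl1, Cxcl2 and Cxcl3 had medians of 0.883, 0 and 0 TPM, and Cxcl5 had a median of 0. Cxcl1, Cxcl2 and Cxcl3 are related in sequence, so some reads may be shared between them. Cxcl5 stood at 177 TPM in the retinal pigment epithelium library (RPE T3F, 1626 counts) and 156 in rectum T173F (349 counts), against 8.55 TPM in spleen as the next highest. The interferon-induced ligand Cxcl9 had its 4 highest levels in libraries of T173F, adrenal gland under adipose (268 TPM, 75 counts), mesentery (198), thymus (134) and right ventricle (100.4). Its median was 37.9 TPM over the 12 libraries of T173F and 2.09 TPM over the 38 of T3F, which are mostly different organs; in ovary, sampled in both animals, the order was the other way, with 8.0 TPM in T173F and 54.2 TPM in T3F.

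Over the 10 sites with 2 animals, 22 of 42 members tested differed among sites at an adjusted p below 0.05 (41.4% of all genes). Beside femur, duodenum and hippocampus, retina had 1 call higher (17.0% of all genes) and 3 lower (4.12%). Ccr9 was the member called higher in retina, with 3.32 TPM in left retina T3F, 3.70 in right retina T3F and 4.54 in retina T426 (8.0 counts), against a mean of 14.8 TPM in duodenum and at most 0.191 TPM at the other sites (adjusted p = 0.00231). In the same order of libraries, Ccl24 (0, 0.0980 and 0 TPM, adjusted p = 0.0419) and Cxcl12 (28.1, 26.6 and 7.87 TPM, adjusted p = 0.0119) were among the lower ones; the call for Ccl24 was lost in 15 of 26 alternatives. The retina of T426 held sperm cell genes at 32848 TPM; without it 2 members were called in retina.

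Renal pelvis had 2 calls higher (5.73% of all genes), Cxcl12 (1321 and 415 TPM in T173F and T426, adjusted p = 0.0174) and Cxcl10 (22.9 and 19.7 TPM, adjusted p = 0.0373), and none with the animal as a block. The call for Cxcl10 was lost in 18 of 26 alternatives, and the hepatocyte genes of renal pelvis T426 were given above; their part in these calls was not tested. Sciatic nerve had 1 call higher (4.94% of all genes), and 2 with the animal as a block. Ovary had 2 calls (3.57% of all genes), Ccr6 (7.55 TPM in T173F and 57.3 in T3F, adjusted p = 0.0134) and Cxcl17 (adjusted p = 0.0124), which changed sign without ovary T173F (-3.37). In skeletal muscle 0 members were called (7.19% of all genes in either direction); 2 had an unadjusted p below 0.05, and DESeq2 called 2.

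At the sites labelled liver and pancreas the calls also rested largely on a single library each. The site labelled liver had 8 calls higher (8.08% of all genes): Ccl11, Cxcl17, Ccl3, Ccl9, Cxcr1, Cxcr2, Ccl6 and Cxcl12. Without the library labelled liver T3F 3 members were called, and Ccl11, Cxcl17, Cxcr1, Cxcr2 and Ccl6 changed sign. Pancreas had 6 calls higher (12% of all genes): Ccl4, Xcr1, Cxcl1, Ccl28, Ccl5 and Ccl11. Ccl4, a macrophage attractant, had 169 TPM in pancreas T173F on 36.0 counts and 0 in pancreas T3F, and no call was left without pancreas T173F or with the animal as a block.

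Sites with the same label in T426 and T3F were compared over 7 sites and 14 libraries with site as a block. They included the site labelled liver, with surfactant and airway genes at 55673 TPM in T3F and 0 in T426. Retina, hippocampus, femur and sciatic nerve, whose T426 libraries held sperm cell genes, were also among them. Of 35 members tested, 0 were called (0.752% of all genes in either direction); 6 had an unadjusted p below 0.05, and DESeq2 called 1. The smallest adjusted p was that of Ccr2 (-4.16 ± 0.79, adjusted p = 0.0516), and Cxcl13 had 2.0 ± 0.67 (adjusted p = 0.153). The T426 libraries were several times shallower, and with 1 animal a side the comparison is between these libraries.

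Other genes of chemokine signalling, taken from a list outside the symbol rule, were counted in the same tests. Of 41 genes of signalling downstream of the receptors in leukocytes, 25 were higher in blood-forming and lymphoid than in other organs (8.12% of all genes) and 0 lower (6.83%), with a median log2 fold change of 2.01. Among them were Rgs18, a regulator of G protein signalling (5.46, adjusted p = 2.90e-13), Fermt3, which activates integrins (4.48, adjusted p = 1.33e-12) and Was, an actin regulator (4.44, adjusted p = 8.21e-12). In brain and spinal cord 7 of these 41 were higher and 15 lower than in other organs, shares near the 14.9% and 29.0% of all genes, with a median of -0.75 (-0.42 over all genes). The smallest adjusted p among the higher was that of Prex1, a Rac activator (1.75, adjusted p = 5.28e-08), and among the lower that of Stat3 (-1.77, adjusted p = 1.05e-05). In small against large intestine 2 were higher (7.15% of all genes) and 9 lower (8.22%), with a median of -0.89, led by Arrb2, a beta-arrestin (-2.40, adjusted p = 0.00646).

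Of 12 atypical receptors and related ligands, 4 were higher in blood-forming and lymphoid organs (8.12% of all genes) and 0 lower (6.83%): the platelet chemokines Ppbp (9.14, adjusted p = 1.59e-14) and Pf4 (6.02, adjusted p = 2.25e-13), Cklf (2.52, adjusted p = 4.81e-09) and Cd74 (2.30, adjusted p = 0.00392). Their median was 0.49. In brain and spinal cord 8 of the 12 were lower (29.0% of all genes) and 0 higher (14.9%), led by Cd74 (-5.07, adjusted p = 1.88e-07), and in small against large intestine 4 of 11 tested were lower (8.22% of all genes) and 0 higher (7.15%), led by Pf4 (-1.69, adjusted p = 0.0132). Of 4 enzymes that cut chemokines or their receptors, Mmp9 was higher in blood-forming and lymphoid organs (7.96, adjusted p = 7.65e-12), and Dpp4, a peptidase of gut epithelium that inactivates Cxcl12 and several others, was higher in small intestine (4.05, adjusted p = 0.0127), with 22.4 to 148 TPM, against 6.57 to 17.1 TPM in large intestine. Dpp4 was lower in brain and spinal cord (-4.69, adjusted p = 3.65e-05).

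Ligands and receptors known to bind each other were set side by side over the 59 libraries, which share animals and differ in depth, so the rank correlations of 21 pairs are descriptive. Spearman's rho ran from 0.062 for Ccl2 and Ccr2 to 0.65 for Cx3cl1 and Cx3cr1. Ccl25 and Ccr9 had 0.27, yet 4 of the 5 libraries highest in each were shared, both duodenums, jejunum and thymus. Ccl19 and Ccl21a each shared 4 of their 5 highest libraries with Ccr7, namely thymus, spleen, kidney artery and colon, with rho of 0.52 and 0.37. Cxcl13 and Cxcr5 shared 3 (spleen, colon and kidney artery; rho 0.20), Cx3cl1 and Cx3cr1 shared 3 (both cortex libraries and hippocampus T3F), and Cxcl12 and Cxcr4 shared 1, spleen (0.44). Cxcl9 and Cxcl10 shared none of their 5 highest libraries with their receptor Cxcr3, whose highest were spleen (54.6 TPM), kidney cortex (51.1), cecum (47.5), ileum (29.9) and jejunum (19.2).

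Genes that lie next to each other need not have had similar levels. In the RefSeq gene table of this species Ccl22, Cx3cl1 and Ccl17 lie in a row with 0 coding genes between them. Ccl22 and Ccl17 were highest in thymus (649 and 394 TPM), and Cx3cl1 between them was highest in caudal cortex (1247 TPM) and had 25.4 TPM in thymus. Spearman's rho over the 59 libraries was -0.23 for Ccl22 with Cx3cl1 and 0.11 for Cx3cl1 with Ccl17. The receptors Cx3cr1 and Ccr8 are also direct neighbours (rho -0.22), whereas Cxcr6 and Xcr1, direct neighbours too, had a rho of 0.50 and the interferon-induced ligands Cxcl10 and Cxcl9 had 0.25. Ccr8 was at 0 in 54 of the 59 libraries, Ccl22 in 46, Xcr1 in 33 and Ccl17 in 31. Ties therefore weigh on the rho values of these genes.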

How the data were processed

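The 59 libraries share 2 deposited tables. The first holds expected counts per gene, which the authors made with RSEM and Bowtie 0.12.8, per the submitters' processing notes. The second holds TPM, deposited by the authors after scaling by transcript length, and sums to 1000000 per library. For genome build, annotation and strand setting the sources used here give nothing. Expected counts were rounded and fitted on all genes with edgeR 4.0.16 in R 4.3.3 (TMM scaling, the package's filter on low counts, quasi-likelihood test, Benjamini-Hochberg adjustment over all genes tested); DESeq2 1.42.0 was an alternative. The 2 retinas of T3F were summed in tests. Class comparisons used 58 libraries, site comparisons 20, the intestine 7 and T426 against T3F 14. Figures plot log2(TPM + 1), computed from the deposited TPM. The steps were tested on simulated data.

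Members and lists were chosen with earlier results of these data known. Named with values were called members (up to 10 per direction), organ-enriched members, the 8 highest by mean TPM and partners of known pairs; other members were added after their values were seen. Libraries of different sites of an animal share that animal, and the animal entered as a block as an alternative; no label says that samples of a group are separate preparations, so the spread may be partly technical. Counts have no molecular identifiers, so floors cover counting error only. No sequences were used here. Values of 1 member are not reported here, and it stays in the counts.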

Additional observations from a re-analysis of the deposited data

Results flagged for a closer look

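Single libraries stood apart from the rest of their group for 9 member values in 35 groups of values looked at. The measure was the gap to the nearest library relative to the group's whole range, both on the log2(TPM + 1) scale. For normally distributed values, chance alone gives such a gap in about 1 of 20 groups. Libraries of different organs need not follow that distribution. Among the 5 blood-forming and lymphoid libraries the thymus stood apart in Ccr9 (477 TPM, next 4.58), Ccl22 (649 TPM, next 4.59) and Ccl17 (394 TPM, next 2.28). Among the 10 brain and spinal cord libraries, cerebellum stood apart with a low Cx3cr1 (20.4 TPM, next 49.3) and a high Cxcl12 (150 TPM, next 46.9). Hippocampus T426, the library with sperm cell genes, stood apart in Ccl21a (52.8 TPM on 35.0 counts, next 2.39) and in Cxcl9 (7.31 TPM on 1.0 count, next 0). Ccl8 in thalamus and hypothalamus (2.27 TPM on 2.0 counts) and Ccr9 in medulla oblongata (0.133 TPM on 1.0 count) were, like Cxcl9 in hippocampus T426, single values above 0 in libraries otherwise at 0, for which the gap is the whole range by construction.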

How the results depend on the processing

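Of 84 called results that were followed through the alternatives, 28 kept their call in every alternative run. A further 56 lost it in some, and 15 changed sign in some. The causes were not tested. Other called results named above, such as that of Ccl3 in lymphoid against other organs, were not among the 84. The counts for lymphoid organs and brain stayed within 1.5 times under every alternative. The animal as a replicate block left 0 calls in small against large intestine, 0 in pancreas and 0 in renal pelvis and gave 2 in sciatic nerve; no other count moved by over 1.5 times, and T426 against T3F without site in the model gave 0. DESeq2 gave 9 calls in hippocampus, 1 in ovary, 8 in renal pelvis, 11 in retina, 2 in sciatic nerve, 2 in skeletal muscle and 1 in T426 against T3F, and no filter on low counts gave 1 in renal pelvis.

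A reduced set left out pancreas T173F and the libraries labelled lung T3F and liver T3F, and there calls numbered 14 in duodenum, 7 in hippocampus, 6 in ovary, 0 in pancreas, 6 in renal pelvis, 10 in retina, 5 in sciatic nerve, 2 in skeletal muscle and 1 in T426 against T3F. A strict set that further dropped 5 libraries of T426 (those of renal pelvis, femur, sciatic nerve, hippocampus and retina) gave 14 in duodenum, 7 in hippocampus, 5 in liver, 7 in ovary, 1 in pancreas, 4 in sciatic nerve, 2 in skeletal muscle and 2 in T426 against T3F. Leaving out each library in turn gave 9 to 12 calls in blood-forming and lymphoid organs, 39 to 40 in brain, 5 to 16 in small against large intestine, 15 to 29 for site differences, 3 to 13 in duodenum, 7 to 14 in femur, 0 to 7 in hippocampus, 3 to 12 in liver, 1 to 4 in ovary, 0 to 8 in pancreas, 0 to 6 in renal pelvis, 1 to 7 in retina, 0 to 4 in sciatic nerve, 0 to 2 in skeletal muscle and 0 to 1 in T426 against T3F; a lone library of a site was assumed to vary like the others. Organ-enriched members numbered 27 at a ratio of 2, 6 at a ratio of 8 and 7 by site name.

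Signs turned as follows, in log2 fold change, with the range over leaving out each library in turn. Ccr9 ranged from -1.12 (without the thymus) to 4.83 and Ccl22 from -1.62 (without the thymus) to 4.31 in lymphoid against other organs. Ccl20 in duodenum ranged from -2.39 (without duodenum T3F) to 5.61, Cxcl5 in femur from -2.58 (without femur T3F) to 5.71, Ccl25 in femur from -3.71 (without femur T426) to 5.28, with -2.37 in the strict set, and Cxcl17 in ovary from -3.37 (without ovary T173F) to 8.01. At the site labelled liver the lowest value always came without its T3F library. The ranges were -7.08 to 6.75 for Ccl11, -7.35 to 6.92 for Cxcl17, -1.90 to 4.53 for Cxcr1, -3.64 to 4.68 for Cxcr2 and -0.19 to 4.76 for Ccl6, and these genes had -6.86, -7.44, -1.94, -3.71 and -0.29 in the reduced and -6.57, -7.74, -2.19, -4.22 and -0.092 in the strict set. In pancreas the lowest came without T173F, with -3.29 to 9.30 for Ccl4, -3.13 to 8.10 for Xcr1, -4.59 to 7.01 for Ccl28 and -1.32 to 5.59 for Ccl5, and these had -3.40, -2.54, -4.13 and -0.42 in the reduced and -3.46, -2.87, -3.91 and -0.029 in the strict set. The shallow T426 libraries limit what a value of 0 can show.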
